A study of Mus musculus with 6 samples.

Results

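Collagen VI, collagen VIII and the fibril-associated collagens XII, XIV and XVI were described in lineage-traced cells of the murine aorta. They were taken by name as 8 genes, *Col6a1*, *Col6a2*, *Col6a3*, *Col8a1*, *Col8a2*, *Col12a1*, *Col14a1* and *Col16a1*, of the 24421 rows of the expression matrix. Each of the 8 names had a row. The libraries came from mice of the strain 129S6/SvEv at 8 weeks of age that carried the conditional tracer allele CAG-Sun1/sfGFP. In 3 libraries Mef2cSHF Cre had switched the tracer on in descendants of the secondary heart field (SHF), and in the other 3 Wnt1-Cre2 had done so in descendants of the cardiac neural crest (CNC). Living GFP-positive cells were sorted after aortic root and ascending aorta tissue had been digested for 30 minutes at 37°C. Both Cre lines mark an embryonic origin and not a cell type, so that any traced cell of the dissected tissue could enter the sort. The sources used here do not say how many mice went into a library or of which sex they were. No gene deletion is described for these mice, and the comparison addresses how the transcriptomes of the lineages differ. Where 3 values of a lineage are given, they are in the order of replicates 1, 2 and 3.

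These collagens do not build the thick fibrils themselves but organise what surrounds them. Type VI collagen is assembled from an α1 and an α2 chain with a further chain, most often α3, and forms beaded microfilaments around cells that bind fibrils, basement membranes and cell surface receptors. Type VIII collagen is a short-chain collagen of α1 and α2 chains that forms network-like lattices and is known from vessel walls, where smooth muscle and endothelial cells make it, and from Descemet's membrane of the cornea. Types XII, XIV and XVI have interrupted triple helices. Types XII and XIV sit on the surface of fibrils of collagen I, while type XVI is found with fibrils and microfibrils depending on the tissue.

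*Col6a1* (ENSMUSG00000001119.7) lies on chromosome 10 of GRCm38, the build also called mm10, from 76708792 to 76726168, and *Col6a2* (ENSMUSG00000020241.13) on the same chromosome and strand from 76595762 to 76623630. The genes are 85161 bases apart with no annotated protein-coding gene between them. *Col6a3* (ENSMUSG00000048126.16) is on chromosome 1 from 90765923 to 90843971. *Col8a1* (ENSMUSG00000068196.5) is on chromosome 16 from 57624258 to 57754737, and *Col8a2* (ENSMUSG00000056174.8) on chromosome 4 from 126286793 to 126314330. *Col12a1* (ENSMUSG00000032332.17) is on chromosome 9 from 79598991 to 79718831, *Col14a1* (ENSMUSG00000022371.16) on chromosome 15 from 55307750 to 55520803, and *Col16a1* (ENSMUSG00000040690.15) on chromosome 4 from 130047840 to 130099283. All 8 are protein-coding in GENCODE M21, and none shares exon sequence with another annotated gene, on either strand. The longest coding transcript had between 4 exons in *Col8a1* and *Col8a2* and 70 in *Col16a1*, and measured from 4100 bases in *Col6a1* to 11511 bases in *Col12a1*.

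The promoters of the type VIII chains are shown because these chains, which are parts of one collagen, had unlike patterns over the libraries. The sequences are the 250 bases before the RefSeq start on GRCm38.p6, at chr16:57754738-57754987 on the minus strand for *Col8a1* and chr4:126286544-126286793 on the plus strand for *Col8a2*, written 5′ to 3′ along the gene, with each GGGCGG, the letters of a GC box, and its reverse complement in capitals.
Col8a1: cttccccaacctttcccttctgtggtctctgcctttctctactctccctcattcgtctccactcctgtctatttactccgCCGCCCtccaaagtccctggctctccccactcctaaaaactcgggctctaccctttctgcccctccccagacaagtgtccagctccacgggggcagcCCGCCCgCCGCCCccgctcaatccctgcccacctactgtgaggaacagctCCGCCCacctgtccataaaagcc
Col8a2: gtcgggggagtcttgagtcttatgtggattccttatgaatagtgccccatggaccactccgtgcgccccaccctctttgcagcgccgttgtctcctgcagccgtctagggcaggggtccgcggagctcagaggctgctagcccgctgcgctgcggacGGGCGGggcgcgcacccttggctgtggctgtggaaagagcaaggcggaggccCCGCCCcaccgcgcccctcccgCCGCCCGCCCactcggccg
Both windows held 4 matches to GGGCGG, counted on both strands and with overlaps, and 32.7% of the 32851 promoter windows of this length held at least 1. The *Col8a2* window was 70.0% G and C with 24 CG dinucleotides and the *Col8a1* window 60.8% with 10, against medians of 52.4% and 6 over all windows. TATAAA, the letters of a TATA box, was in 12.4% of all windows and in none of those of the 6 members with an entry, and CCAAT was in 33.8% of all windows and among those 6 in that of *Col16a1*.

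Levels are in TPM, a transcript abundance scaled to transcript length and to the library total, so that levels of different genes can be set side by side within a library. TPM sums to 1000000 in every library, so the depth is unknown and no counting interval can be given. Between 9255 and 11858 rows were above 0 in a library. The protocol amplified the cDNA, and a value of 0 is given as listed at 0, not as absence. The cells are called smooth muscle cells in the study, and the summed level of 10 smooth muscle markers was from 889 to 2115 TPM, with *Myh11*, the smooth muscle myosin heavy chain, from 17.43 to 125 TPM. The summed level of 9 fibroblast markers, none of them a collagen, was above the smooth muscle sum in all 6 libraries, from 6039 to 10978 TPM. The summed level of 8 leukocyte markers was from 0 to 34.5 TPM in 5 libraries and 269.8 TPM in CNC replicate 2, where *C1qb*, a complement gene of macrophages, was at 141.06 TPM, while *Ptprc*, which defines leukocytes, was listed at 0 in every library. *Xist*, a transcript of female cells, exceeded 5 TPM in 2 libraries, SHF replicates 2 and 3, and was at 0 in every other one. Sex may therefore go partly with lineage, and these libraries cannot tell them apart. In bulk samples fewer cells of a type and less RNA per cell cannot be told apart.

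The 8 collagen genes spanned a wide range of levels. In order of their mean over the 6 libraries they were *Col6a1* at 1008 TPM, *Col6a2* at 709 TPM, *Col14a1* at 389 TPM, *Col6a3* at 97.5 TPM, *Col16a1* at 78.0 TPM, *Col8a1* at 39.4 TPM, *Col12a1* at 7.24 TPM and *Col8a2* at 4.94 TPM. The first 3 steps of this order held in 6 of 6 libraries. The later steps did not, since *Col6a3* was above *Col16a1* and *Col16a1* above *Col8a1* in 4 of 6 libraries, *Col8a1* above *Col12a1* in 5 of 6, and *Col12a1* above *Col8a2* in 4 of 6. Together the 8 transcripts came to 1815, 1632 and 2233 TPM in SHF libraries and to 2810, 2291 and 3222 TPM in CNC libraries. Every CNC library was thus above every SHF library for this sum, the nearest at 2291 against 2233 TPM. Divided by fibroblast markers or by fibril core collagens, as given below, the sum did not keep this order. As the plot of the make-up shows, the 3 chains of collagen VI held from 74.2% to 80.6% of it in every library, the fibril-associated collagens from 16.5% to 23.2%, and collagen VIII from 0.165% to 5.20%.

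**Figure D1:**
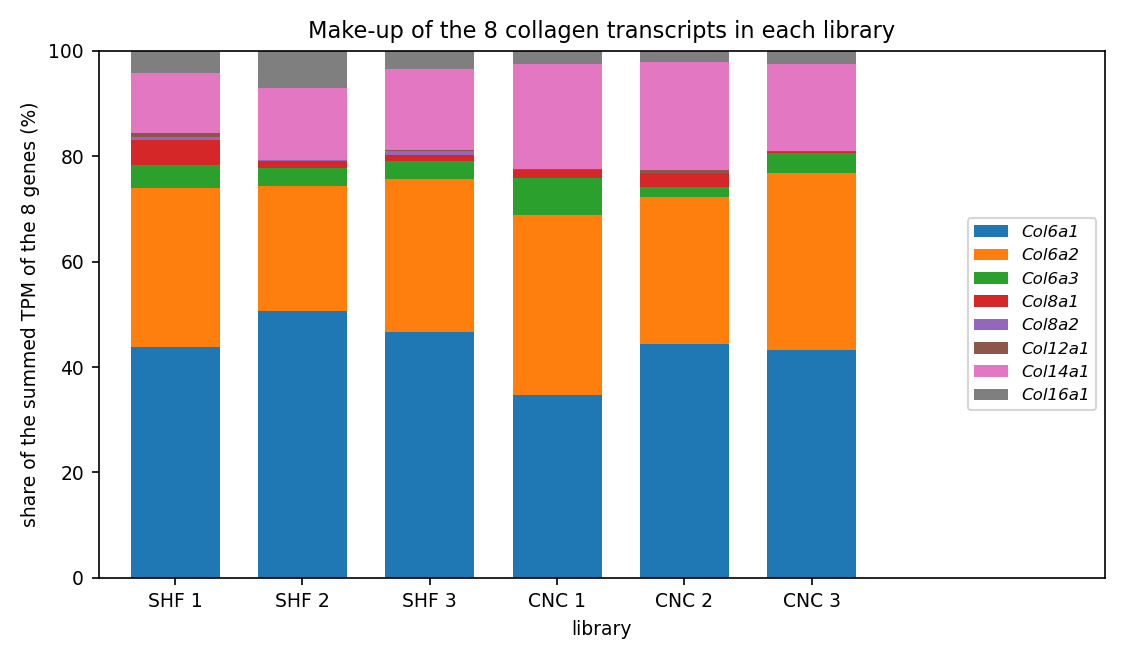
Stacked bars give each gene's share, in percent, of the summed TPM of the 8 collagen genes in each of the 6 libraries (x axis, 3 SHF and 3 CNC). *Col6a1* and *Col6a2* fill most of every bar, and *Col14a1* takes a larger share in each CNC library (16.6% to 20.4%) than in any SHF library (11.4% to 15.4%).

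The levels of all 8 genes were compared between SHF and CNC libraries with limma on log2(TPM + 1), a scale that understates the change of low genes, over the 10185 genes that reached 1 TPM in 3 or more of the libraries. All 8 were tested. None passed the threshold of 0.05 after Benjamini-Hochberg adjustment, as for every gene of the table (percent called 0). At an unadjusted p under 0.05 there were 2 of the 8, *Col6a2* and *Col14a1*, both higher in CNC libraries, against 5.86% of all genes. The SHF and CNC libraries did not overlap for 2 of the 8, *Col14a1*, higher in CNC libraries, and *Col8a2*, higher in SHF libraries, against 11.8% of all genes tested, 5.68% with CNC above and 6.11% with SHF above. *Col8a2* passed the filter through the SHF libraries alone, which fixed its place in this count and its direction. The 1 other, *Col14a1*, leaves a share of the members near that of all genes, so the count is no result about them. The median log2 difference, SHF minus CNC, was -0.21 over the 8 genes and 0.02 over all genes tested, and that of the 8 had no stable direction, since it was 0.016 with quantile normalization. With each library left out it ran from -0.61 without SHF replicate 1, where *Col8a2* had no value, to -0.11 without CNC replicate 2. Adjusted p-values by limma ran from 0.625 to 0.997. The smallest p that exact two-sided permutation allows for one gene in this design of 3 and 3 libraries is 0.1. The samples of a lineage are biological replicates in the study's words, and the p-values measure the spread between them.

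**Figure D2:**
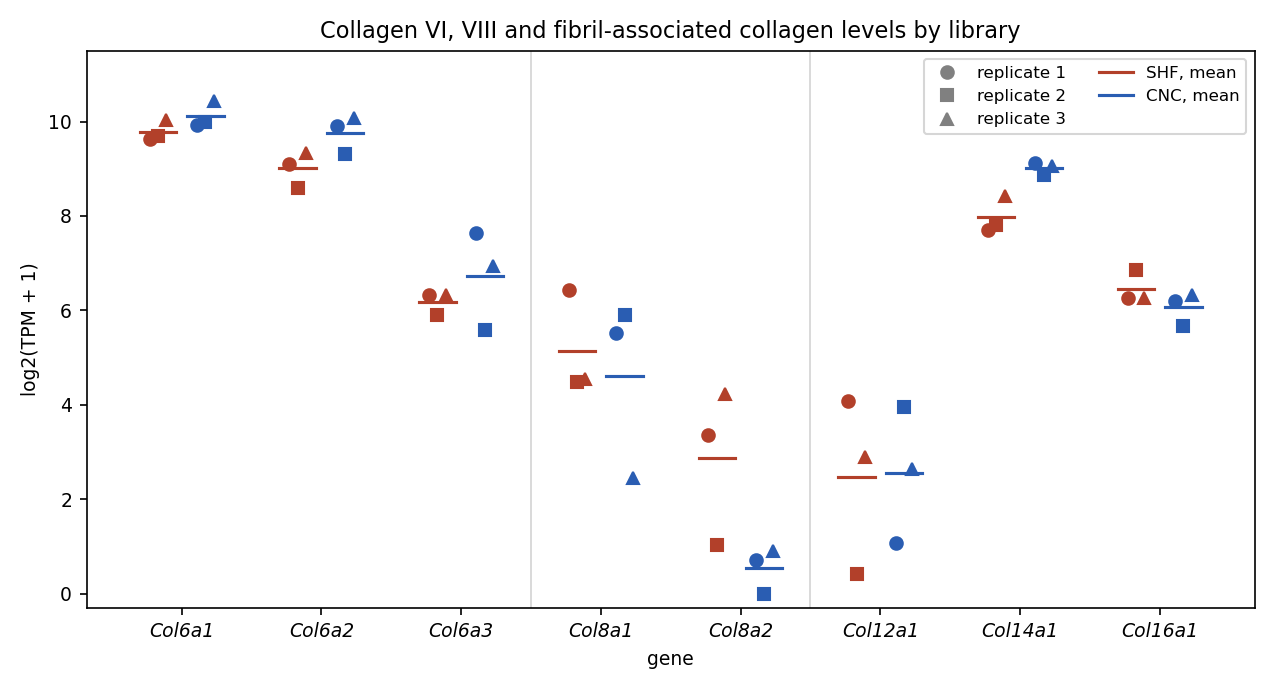
Each point is a library, with log2(TPM + 1) on the y axis for each of the 8 genes on the x axis, SHF in red and CNC in blue, and horizontal lines give the mean of 3 replicates. The SHF and CNC points are apart for *Col14a1* and *Col8a2*, and *Col8a1*, *Col8a2* and *Col12a1* spread most within a lineage.

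**Figure D3:**
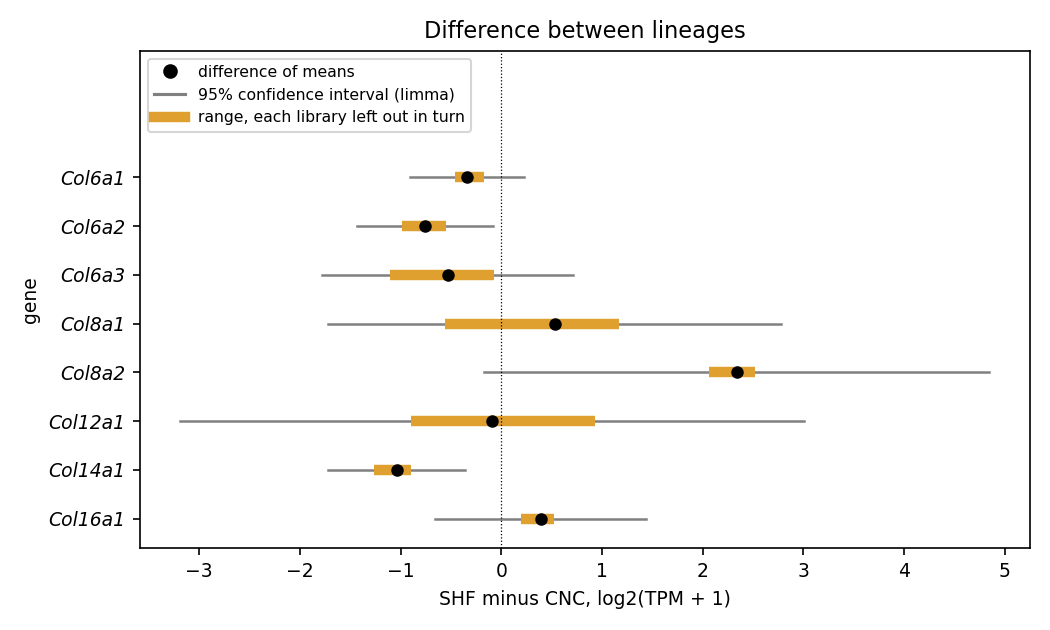
Black points give the difference SHF minus CNC in mean log2(TPM + 1) for each gene (y axis), grey lines its 95% confidence interval from limma, and orange bars the range when each library was left out in turn. The intervals of *Col6a2* and *Col14a1* lie below 0 before adjustment, and the orange bars of *Col8a1* and *Col12a1* cross 0, while that of *Col8a2* covers CNC libraries left out alone, since without any SHF library the gene fell under the filter.

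Among the collagen VI chains, *Col6a1* encodes the α1 chain and was the most abundant of the 8 genes, ranking between 102 and 190 among the 24421 rows of a library. It was at 794.89, 826.73 and 1041.04 TPM in SHF libraries and at 976.22, 1015.87 and 1393.87 TPM in CNC libraries. The highest SHF library lay inside the CNC range, so the lineages overlapped. The mean was 888 ± 134 TPM (SD, n = 3) in SHF and 1129 ± 231 TPM (SD, n = 3) in CNC libraries. SHF minus CNC, the log2 difference was -0.34 ± 0.26 (SE) with a 95% confidence interval from -0.90 to 0.23, and the adjusted p by limma was 0.888.

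*Col6a2*, the α2 chain, was at 547.24, 384.76 and 647.12 TPM in SHF libraries and at 955.76, 638.46 and 1081.96 TPM in CNC libraries. SHF replicate 3 was just above CNC replicate 2, and the other SHF libraries were below every CNC library. The mean was 526 ± 132 TPM (SD, n = 3) in SHF and 892 ± 229 TPM (SD, n = 3) in CNC libraries. On the log2 scale SHF minus CNC was -0.76 ± 0.31 (SE), from -1.44 to -0.08 at 95% confidence, with an adjusted p of 0.812 by limma and an exact two-sided permutation p of 0.2.

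*Col6a3*, the long α3 chain whose cleaved end is released as endotrophin, was at 79.68, 58.42 and 79.41 TPM in SHF libraries and at 199.02, 46.77 and 121.45 TPM in CNC libraries. The SHF libraries were close together, whereas the CNC libraries held both the highest and the lowest value. The log2 difference was -0.53 ± 0.56 (SE), from -1.78 to 0.71, with an adjusted p of 0.904 by limma. It was -0.07 without CNC replicate 1 and -1.10 without CNC replicate 2.

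Since the chains assemble together, their TPM were set against each other within each library. *Col6a2* was at 0.688, 0.465 and 0.622 of the *Col6a1* level in SHF libraries and at 0.979, 0.628 and 0.776 in CNC libraries. *Col6a2* was therefore below *Col6a1* in all 6 libraries, and the lineages overlapped. On the log2 scale this ratio was -0.78 ± 0.29 (SD, n = 3) in SHF and -0.36 ± 0.32 (SD, n = 3) in CNC libraries. *Col6a3* was at 0.10, 0.0707 and 0.0763 of *Col6a1* in SHF libraries and at 0.204, 0.0460 and 0.0871 in CNC libraries, and so far below the α1 level in every library. The log2 ratio was -3.62 ± 0.27 (SD, n = 3) in SHF and -3.42 ± 1.08 (SD, n = 3) in CNC libraries, so that the means differed by less than the spread of the CNC libraries. The longest annotated coding transcripts of the 3 genes are 4100, 4653 and 10106 bases long, and a possible effect of length on the ratio was not tested.

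*Col8a1*, the α1 chain of collagen VIII, was at 84.96, 21.25 and 22.42 TPM in SHF libraries and at 44.74, 58.65 and 4.45 TPM in CNC libraries. SHF replicate 1 was the highest library and CNC replicate 3 the lowest, and the highest value was 19.1 times the lowest. SHF minus CNC, the log2 difference was 0.53 ± 1.02 (SE) with an interval from -1.72 to 2.78, and the adjusted p by limma was 0.944. Without CNC replicate 3 the difference was -0.56 and without SHF replicate 1 it was -0.11, so its direction depended on single libraries.

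*Col8a2*, the α2 chain, was at 9.34, 1.04 and 17.77 TPM in SHF libraries and at 0.65, 0 and 0.86 TPM in CNC libraries. Every SHF library was above every CNC library, but SHF replicate 2 was only 1.21 times the highest CNC library. The mean was 9.38 ± 8.37 TPM (SD, n = 3) in SHF libraries, and in CNC libraries the gene was below 1 TPM throughout and listed at 0 in replicate 2. The log2 difference was 2.34 ± 1.14 (SE), from -0.17 to 4.85, with an adjusted p of 0.874 by limma. The gene was in the test because the 3 SHF libraries reached 1 TPM while no CNC library did, so the filter itself fixed the separation, and no permutation p is given. Under the rule for lineage-exclusive transcripts in the study's methods, read here as more than 5 TPM throughout one lineage and 0 throughout the other, neither *Col8a2* nor any other of the 8 was exclusive, whereas 0.0778% of all rows were exclusive to SHF and 0.0614% to CNC.

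The chains of collagen VIII did not follow one another. *Col8a2* was at 0.110, 0.0489 and 0.793 of the *Col8a1* level in SHF libraries and at 0.0145, 0 and 0.193 in CNC libraries. The α1 transcript was above the α2 transcript in all 6 libraries, closest in SHF replicate 3. Other cell markers that were higher in SHF libraries are given beside these values. The summed level of 9 endothelial markers was 82.8, 581 and 520 TPM in SHF libraries and from 22.9 to 61.0 TPM in CNC libraries, with *Cdh5*, *Tie1*, *Cldn5*, *Emcn* and *Vwf* listed at 0 in all CNC libraries. Of the 9, 6 were tested and 2, *Cdh5* and *Emcn*, had SHF libraries above all CNC libraries, against 6.11% of all genes tested. Being listed at 0 in all CNC libraries, both entered the test only through the SHF libraries, which fixed that direction. *Tek*, of the same list, was at 31.58, 0 and 57.25 TPM in SHF libraries and at 36.71, 23.1 and 1.11 TPM in CNC libraries, which overlapped. The sum of 6 cardiomyocyte markers was from 87.4 to 116 TPM in SHF and from 0 to 37.9 TPM in CNC libraries, with 1 of the 6 tested and *Myl7* listed at 0 in every library. SHF replicate 2, which was lowest of the SHF libraries in *Col8a2*, was highest in the endothelial sum. The part of these cells in the *Col8a2* values was not tested.

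The product of *Col14a1* binds decorin on collagen fibrils and limits their growth in width. Of the fibril-associated collagens, this gene alone was without overlap between the lineages, as were 11.8% of all genes tested. It was at 207.04, 224.48 and 343.48 TPM in SHF libraries and at 559.87, 467.34 and 534.07 TPM in CNC libraries. The lowest CNC library was 1.36 times the highest SHF library. The mean was 258 ± 74.3 TPM (SD, n = 3) in SHF and 520 ± 47.7 TPM (SD, n = 3) in CNC libraries, 2.01 times as high. The log2 difference was -1.04 ± 0.31 (SE), with an interval from -1.72 to -0.36. The adjusted p by limma was 0.625, the lowest among the 8 genes, and the exact two-sided permutation p was 0.1. The difference stayed between -1.26 and -0.90 when each library was left out in turn. CNC replicate 2, the lowest CNC library in *Col14a1*, *Col6a2* and *Col6a3*, was the highest of the 6 in leukocyte markers, at 269.8 TPM against at most 34.5 TPM elsewhere. Of this list 3 of 8 genes were tested, with *Ptprc* and *Cd3e* listed at 0 throughout, and their part in the collagen values was not tested.

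*Col12a1* encodes the large collagen XII, which bridges fibrils in tissues under tension. It was at 15.92, 0.34 and 6.42 TPM in SHF libraries and at 1.11, 14.43 and 5.22 TPM in CNC libraries. Both lineages held a library above 14 TPM and one near or below 1 TPM, and the highest value was 46.8 times the lowest. With a log2 difference of -0.09 ± 1.41 (SE), from -3.19 to 3.01, these libraries could not tell a large change in either direction from none. *Col14a1* was from 13.01 to 660 times the *Col12a1* level, and it was the higher of both in all 6 libraries.

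*Col16a1* encodes collagen XVI, a minor fibril-associated collagen that integrins bind. It was at 75.66, 114.66 and 75.56 TPM in SHF libraries and at 72.41, 49.9 and 79.7 TPM in CNC libraries. The lineages overlapped through CNC replicate 3. The mean was 88.6 ± 22.5 TPM (SD, n = 3) in SHF and 67.3 ± 15.5 TPM (SD, n = 3) in CNC libraries. The log2 difference was 0.39 ± 0.48 (SE), from -0.66 to 1.44, with an adjusted p of 0.911 by limma. As a share of the summed 8 transcripts *Col16a1* was at 4.17%, 7.03% and 3.38% in SHF libraries and at 2.58%, 2.18% and 2.47% in CNC libraries. The sum by which these shares are divided was itself higher in every CNC library.

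The genes also differed in how far replicates of a lineage lay apart. The SD of log2(TPM + 1) within a lineage was 0.25 for *Col6a1*, 0.29 for *Col14a1*, 0.35 for *Col16a1*, 0.39 for *Col6a2* and 0.76 for *Col6a3*. It was 1.22 for *Col8a2*, 1.55 for *Col8a1* and 1.67 for *Col12a1*. The median was 0.58 over the 8 genes, 1.19 over all genes tested and 0.47 over tested genes averaging 100 TPM or more. The 3 members averaging 100 TPM or more were thus below the median spread of genes of that level. *Col8a1* and *Col12a1* were above the median over all genes tested, and *Col8a2* was just above it.

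To set the profiles of the members side by side, each gene's log2(TPM + 1) was centred on its own mean. Genes were then compared by the root mean square difference over the 6 libraries. The profiles were not scaled, so the difference is small between genes that vary little and grows with a gene's own spread. A small value is therefore not by itself a shared pattern. Of the 28 pairs of members the closest were *Col6a2* with *Col14a1* at 0.29, *Col6a1* with *Col6a2* at 0.33 and *Col6a1* with *Col14a1* at 0.40. *Col8a1* with *Col8a2*, at 1.87, was the second most distant pair. The root mean square of their own profiles was 1.29 and 1.53. Their median differences from tested genes averaging 10 TPM or more were 1.63 and 1.81, and 1.87 was not far above these. Among the 7364 tested genes averaging 10 TPM or more, those closest to *Col6a2* were *Col5a1* at 0.14, *Itgbl1* at 0.16 and *Col3a1* at 0.16, so that 2 of the 3 were chains of fibril collagens. Closest to *Col6a1* were *Lipa* at 0.12, *H2-T23* at 0.14 and *Serpinf1*, which is also on the list of fibroblast markers, at 0.15. Closest to *Col14a1* were *Tgfbi*, which encodes a collagen-binding matrix protein, at 0.15, *Gm8580* at 0.16 and *Ctso* at 0.18. The closest to *Col6a3* was *Rab33b* at 0.13 and to *Col16a1* *Hmgn1* at 0.10. The closest genes to *Col8a1*, *Col8a2* and *Col12a1* were *Fads3*, *Agap3* and *Rian*, at 0.48, 0.62 and 0.48. With 6 libraries and so many genes some profiles lie close whatever their relation, and these values describe the libraries only.

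Other genes of the same families were mostly at or near 0. Of 11 listed genes, further chains of collagen VI, collagens IX, XIX, XX, XXI and XXII and the short-chain collagen X, 10 had a row, 3 were listed at 0 in all libraries, *Col6a4*, *Col19a1* and *Col22a1*, and 2 were tested, *Col6a6* and *Col20a1*, with 0 past the threshold. *Col6a6*, which encodes a chain related to α3, was at 23.27, 43.79 and 17.21 TPM in SHF libraries and at 27.69, 46.98 and 38.93 TPM in CNC libraries. It was thus above 0 in every library and below *Col6a3* in 5 of 6, the exception being CNC replicate 2. *Col20a1* was at most 6.53 TPM in any library. *Col9a1*, at 10.96 and 11.02 TPM in SHF replicates 1 and 2, and *Col9a3*, at 3.25 and 9.62 TPM in SHF replicates 1 and 3, were listed at 0 in the remaining libraries.

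Of 10 listed receptors 8 were tested, 0 passed the threshold, and 0 of the 8 were without overlap, against 11.8% of all genes tested, a share at which 0 of 8 is no result about receptors. Their median log2 difference was 0.15 and ran from -0.10 to 0.29 with each library left out, beside a median of 0.02 over all genes. *Antxr2*, which encodes the receptor that takes up collagen VI, was at 89.7 ± 31.0 TPM (SD, n = 3) in SHF and 125 ± 70.4 TPM (SD, n = 3) in CNC libraries. *Itgb1*, the β chain of collagen-binding integrins, was at 391 ± 19.3 TPM (SD, n = 3) in SHF and 324 ± 63.5 TPM (SD, n = 3) in CNC libraries, *Ddr2*, a receptor for fibril collagens, had means of 68.3 and 62.8 TPM, and *Antxr1* means of 38.3 and 36.1 TPM.

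Of the binding partners 7 of 8, and of the fibril core collagens 6 of 6, had a lower mean in SHF libraries, in TPM and on the log2 scale. All 8 listed binding partners were tested, the median log2 difference was -0.70, and 2 had CNC libraries above all SHF libraries, against 5.68% of all genes tested. With each library left out this median ran from -0.93 to -0.32, the latter without SHF replicate 2. These were *Fmod*, a leucine-rich proteoglycan of fibrils, at 117.52, 240.27 and 162.25 TPM in SHF libraries and at 514.18, 448.49 and 1015.73 TPM in CNC libraries, and *Matn2*, an adaptor of the filament network that was named after its values were seen, with 146 ± 25.7 TPM (SD, n = 3) and 303 ± 67.8 TPM (SD, n = 3). *Fn1*, at 260 ± 166 TPM (SD, n = 3) in SHF and 410 ± 113 TPM (SD, n = 3) in CNC libraries, overlapped. *Dcn* and *Bgn*, small proteoglycans known as partners of collagen VI, had log2 differences of -0.13 and -0.27, which quantile normalization turned to 0.040 and 0.069. Of the 6 fibril core collagens 4 had CNC libraries above all SHF libraries, against 5.68% of all genes tested, namely *Col1a1*, *Col1a2*, *Col3a1* and *Col5a2*, and the median log2 difference was -0.75. *Col1a1* was at 4541, 4005 and 4396 TPM in SHF libraries and at 11792, 7322 and 12778 TPM in CNC libraries. None of these genes passed the threshold, and the lowest adjusted p by limma was 0.465, for *Col1a1*.

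**Figure D4:**
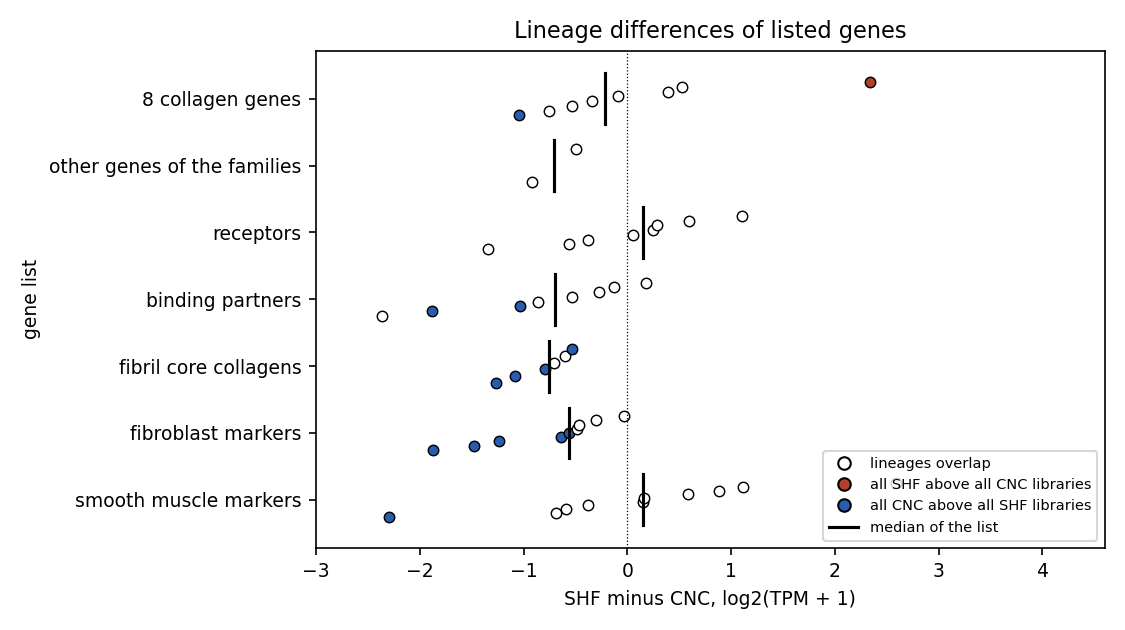
Each point is a tested gene, placed by its difference SHF minus CNC in mean log2(TPM + 1) on the x axis and by its list on the y axis, with filled points where the libraries of the lineages do not overlap and a black line at the median of the list. The medians of binding partners, fibril core collagens and fibroblast markers lie at -0.70, -0.75 and -0.56, and those of receptors and smooth muscle markers at 0.15, of which that of smooth muscle markers was -0.12 when SHF replicate 1 was left out and 0.54 when SHF replicate 2 was, and that of receptors ran from -0.10 to 0.29.

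The fibroblast markers had the same direction of difference as *Col14a1* and the collagen VI chains. All 9 were tested, 9 of 9 had a lower mean of log2(TPM + 1) in SHF libraries, where *Dpt* differed by -0.04 only, and 0 passed the threshold. Of the 9, 5 had CNC libraries above all SHF libraries, against 5.68% of all genes tested, namely *Clec3b*, *Pi16*, *Serpinf1*, *Mfap5* and *Scara5*, named after their values were seen. *Lum*, the most abundant of the list, was at 2167 TPM in SHF and 2730 TPM in CNC libraries on average and overlapped. The median log2 difference was -0.56. Their sum was from 6039 to 7604 TPM in SHF and from 10504 to 10978 TPM in CNC libraries, and none was listed at 0 in any library. The 10 smooth muscle markers summed to between 889 and 2115 TPM in SHF and between 901 and 1283 TPM in CNC libraries, and 6 of the 10 had a higher and 4 a lower mean of log2(TPM + 1) in SHF libraries. *Actg2*, with CNC libraries above all SHF libraries, and *Tagln*, at 433 TPM in SHF and 185 TPM in CNC libraries on average with overlap, were named after their values were seen. The most abundant, *Acta2*, was at 678 TPM in SHF and 581 TPM in CNC libraries on average. To set the members beside these transcripts, their TPM were divided by the summed TPM of the 9 fibroblast markers in the same library, a step chosen after the values were seen. Per 1000 TPM of that sum, *Col14a1* was at 27.2, 37.2 and 48.0 TPM in SHF libraries and at 51.4, 44.5 and 48.6 TPM in CNC libraries. On this scale the lineages overlapped. The 3 collagen VI chains together were at 187, 210 and 247 TPM in SHF libraries and at 195, 162 and 237 TPM in CNC libraries, which also overlapped. *Col16a1*, at 9.95, 19.0 and 10.6 TPM in SHF libraries and at 6.64, 4.75 and 7.26 TPM in CNC libraries, was without overlap on this scale and higher in SHF libraries, as were 17.2% of all genes tested, against 1.95% with CNC libraries above, since the division added 0.64 to every log2 difference, SHF minus CNC. Whether the lower fibroblast markers in SHF libraries have a part in the collagen values was not tested.

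The TPM were also divided by the summed TPM of the 6 fibril core collagens. This added 0.98 to every log2 difference, SHF minus CNC, more than the size of the difference in any collagen VI chain, so that the division itself fixed the direction of their means. Per 1000 TPM of fibril core collagens, the 3 collagen VI chains were at 91.4, 99.1 and 115 TPM in SHF libraries and at 62.5, 85.3 and 75.0 TPM in CNC libraries. Every SHF library was above every CNC library on this scale. *Col16a1* was at 4.86, 8.95 and 4.92 TPM in SHF libraries and at 2.12, 2.503 and 2.30 TPM in CNC libraries, and *Col14a1* overlapped, from 13.3 to 22.4 TPM in SHF and from 15.4 to 23.4 TPM in CNC libraries. Apart from *Col8a2*, whose separation the filter fixed, *Col6a1* and *Col16a1* were without overlap on this scale, both with SHF above, beside 22.2% of all genes with SHF above and 1.18% with CNC above.

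**Figure D5:**
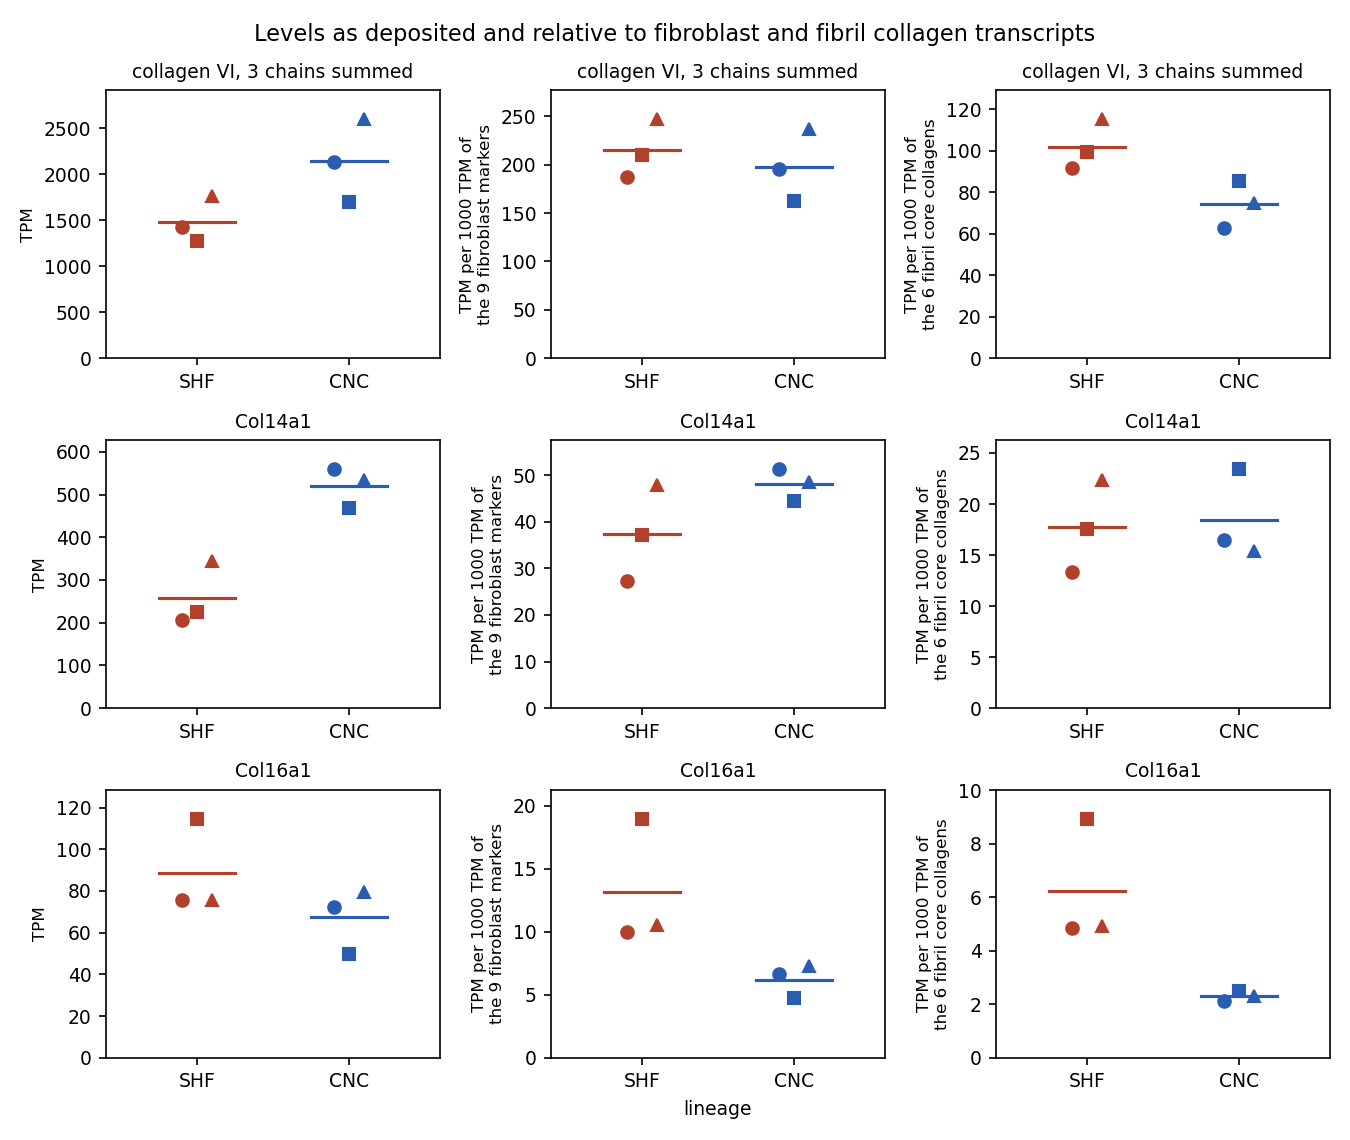
Rows show the summed collagen VI chains, *Col14a1* and *Col16a1*, and columns the TPM as deposited, per 1000 TPM of 9 fibroblast markers and per 1000 TPM of 6 fibril core collagens (y axes), with circles, squares and triangles for replicates 1, 2 and 3 of each lineage and lines for the means. The lineages are apart for *Col14a1* as deposited, for *Col16a1* on both relative scales, and for collagen VI per fibril core collagens.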

How the data were processed

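Sorted cells from 3 SHF and 3 CNC libraries were amplified by the SmartSeq2 protocol, and the authors estimated gene levels with RSEM 1.2.25 on mm10, with bowtie2 as the aligner, and deposited these as TPM values in a single matrix. Which annotation they used is not given in the sources used here. Columns were matched to libraries by library code. From these TPM values, limma 3.58.1 in R 4.3.3 (lmFit, and eBayes with a trend) was run on log2(TPM + 1), a pseudocount of 1, over genes that reached 1 TPM in 3 or more libraries, without a block, with Benjamini-Hochberg adjustment. The script was checked on simulated data. Single genes were also tested by exact permutation over the 20 arrangements of libraries. The genes named are the 8 members, up to 4 of the most abundant genes of each context list, markers of each cell type, and the 3 genes nearest to each member. *Matn2* and markers named for not overlapping, or for a level of 0, were picked once their values were known. The members and lists were chosen with earlier results of these data known. Of 4 mesothelial markers none was tested, *Msln* was listed at 0 throughout, and the sum was at most 66.7 TPM in a library. Alternative settings were a pseudocount of 0.1 or 5, other filters, other scalings, eBayes without a trend, library weights, a replicate block and libraries left out. Positions are from GENCODE M21 by symbol, and promoters from RefSeq, where 6 of the 8 members had an entry. The division by marker sums was added after the values were seen. The single-cell data of the study were not analysed here. Python 3.11.15, pandas 2.3.3 and matplotlib 3.10.9 were used.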

Additional observations from a re-analysis of the deposited data

How the results depend on the processing

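In all 16 alternatives 0 of the 8 collagen genes and 0 of the context genes passed the threshold by limma. Over all genes 1 passed with a pseudocount of 5 and 1 without the libraries with *Xist* above 5 TPM, a fit that leaves SHF with 1 library, assumed to vary like the others, and neither was a member. Of 122 values of the 8 genes under these alternatives, 114 kept their direction. The exceptions were *Col12a1*, at 0.024 with a pseudocount of 5, 0.35 with quantile normalization, 0.36 with library weights, 1.53 without the libraries with *Xist* above 5 TPM and from -0.90 to 0.93 with each library left out, and *Col8a1*, from -0.56 to 1.17 with each library left out. *Col8a2* fell under the filter, and had no test, at 5 TPM in 3 libraries, with median-of-ratios scaling, without any 1 of the SHF libraries and without the libraries with *Xist* above 5 TPM. Of the context genes, *Ddr2* turned to -0.021 with median-of-ratios scaling, -0.0099 with quantile normalization, -0.11 with library weights and -0.42 without the libraries with *Xist* above 5 TPM, and ran from -0.24 to 0.29 with each library left out. *Antxr1* turned to -0.017 with library weights and ran from -0.25 to 0.64, *Antxr2* ran from -0.78 to 0.045, and quantile normalization gave *Dcn* 0.040 and *Bgn* 0.069. The cause was not tested.

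The number of members without overlap between lineages, 2, was 3 with median-of-ratios scaling, through *Col6a2*, and from 2 to 4 with a library left out. The 4 without SHF replicate 3 included *Col6a1* and *Col6a2*, and the 4 without CNC replicate 2 included *Col6a2* and *Col6a3*. Each of these counts includes *Col8a2*, also where it had no test. Divided by the fibril core collagens it was 3 and by the fibroblast markers 2. Leaving out a library can only remove overlap, and from 20.1% to 25% of all genes did not overlap then. The differences in log2 chain ratio ran from -0.58 to -0.26 for *Col6a2* to *Col6a1*, from -0.71 to 0.36 for *Col6a3* to *Col6a1*, from -0.25 to 3.48 for *Col8a2* to *Col8a1*, where it was 1.61 with CNC replicate 2 dropped for its 0 and both ends rest on 1 CNC library, and from -2.17 to 0.66 for *Col14a1* to *Col12a1*. Thresholds of 1 and 10 TPM also gave 0 lineage-exclusive members.

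Replicate numbers are shared between lineages, but the correlations of same-numbered libraries' deviations from the lineage means were -0.011, -0.0044 and -0.011 for replicates 1, 2 and 3. Same-numbered libraries thus showed no common deviation over the genes tested, and whether they shared a day or batch was not tested. The fit with a replicate block also gave 0 members past the threshold. As the depth is unknown, the counting error of the low genes *Col8a2* and *Col12a1* could not be given.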
